A study of Arabidopsis thaliana with 16 samples.

Results

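The genes described here are the auxin-response repressors and transcription factors of Arabidopsis thaliana: 29 Aux/IAA genes and 15 AUXIN RESPONSE FACTOR (ARF) genes, 44 of the 33681 genes in the tables and chosen by gene family. All 44 loci had a row. RNA was taken from whole flowers, as pre-mitotic buds whose anthers were at stages 1–10, and there were 4 groups of 4 biological replicates. They were the wild type Col-0 in normal light (200 µmol m-2 s-1, measured as 205 ± 8.6 SD), shaded Col-0, called low light (set to 50 µmol m-2 s-1 by nets and measured as 53 ± 5 SD), and the double mutant bhlh89,91 in each of the same light conditions. The mutant came from a cross of the T-DNA insertion lines SALK-123106 and GK-345C06, which disrupt the tapetal transcription factor genes bHLH89 and bHLH91. Each gene was thus mutated by 1 insertion line. All plants were grown at 22 °C (as the labels give it) with 16 h days, and shading began when plants started to flower and had not yet bolted.

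The tables hold estimated counts and TPM (a transcript level corrected for gene length and library size) for 16 libraries of 20419619 to 23346158 estimated counts. Transcripts of both mutated genes remained detectable in bhlh89,91: bHLH89 stood at 41.5 to 51.3 TPM in Col-0 normal light and at 18.6 to 24.5 TPM in bhlh89,91 normal light, and bHLH91 at 26.1 to 34.6 and 21.4 to 25.5 TPM. Whether these reads came from parts of the genes away from the insertions was not tested. In low light bHLH89 stood at 27.7 to 32.7 TPM in Col-0 and at 11.1 to 19.7 TPM in the mutant. Floral organ identity and tapetum marker genes were detected in every group. Each library is a mixture of organs, so fewer cells of a type and less RNA per cell cannot be told apart.

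Aux/IAA proteins are short-lived repressors. When auxin is scarce they bind ARFs on the promoters of auxin-responsive genes and recruit TOPLESS (TPL) corepressors. Auxin joins the Aux/IAA degron to the TIR1/AFB F-box receptors of an SCF ubiquitin ligase, the repressor is degraded and the ARF is released. Many Aux/IAA genes are themselves induced by auxin, which makes them a feedback loop. In flowers, auxin is known for its part in primordium initiation, gynoecium patterning, stamen filament growth and pollen development.

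The degron is what separates canonical from non-canonical Aux/IAA genes, so its codons are shown. They are given for 5 repressors with large rises in Col-0 low light (IAA1, IAA2, IAA4, IAA14 and IAA19). They are also given for 2 with another codon where these 5 have valine (IAA8 and IAA13). Capitals mark the in-frame degron codons that matched the search described below. Sequences and coordinates are from the RefSeq annotation of TAIR10.1, and each window lies in a coding exon.
IAA1 (chr4:8361439-8361468, plus strand): atcgttGGATGGCCTCCAGTGagatctaac
IAA2 (chr3:8181384-8181413, minus strand): atcgttGGTTGGCCACCAGTGagatcttcc
IAA4 (chr5:17550743-17550772, plus strand): attgttGGATGGCCACCAGTTagatcttac
IAA14 (chr4:8349475-8349504, minus strand): gtggtgGGTTGGCCACCGGTGaggaactac
IAA19 (chr3:5264310-5264339, plus strand): gtggtgGGGTGGCCACCGGTTtgttcttac
IAA8 (chr2:9637728-9637757, plus strand): gttgttGGTTGGCCTCCAatcagatcatac
IAA13 (chr2:14115230-14115259, minus strand): gttgttGGATGGCCTCCTatagggtcacac

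The longer degron run, 5 in-frame codons for glycine, tryptophan, proline, proline and valine, was found in 17 of 27444 protein-coding genes (0.0619%), and all 17 were Aux/IAA genes. The run without the valine codon was found in 34 genes (0.124%), of which 23 were Aux/IAA genes and 0 were ARFs. IAA8, IAA10, IAA11, IAA12, IAA13 and IAA27 had only the shorter form, with another codon in place of valine. Longer and shorter form name the codons searched for, not the length of the degron. IAA20, IAA30, IAA31, IAA32, IAA33 and IAA34 had neither, the group known as non-canonical because it lacks a working degron. The windows of IAA3 and IAA4 were identical over their 30 bases, and those 2 genes shared 1.28% of their 31-base words, so a small share of their reads could be split between them.

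Among the ARFs, small RNAs set a second layer of control. The mature miRNAs of the miR160 and miR167 families are shown with their seeds (bases 2 to 8) in capitals, because they separate ARFs of this set. The 3 miR160 genes give the same mature RNA, and miR167a and miR167b also share theirs, while miR167d differs at its 3′ end and miR167c carries another seed.
miR160a, miR160b and miR160c: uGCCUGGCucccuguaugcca
miR167a and miR167b: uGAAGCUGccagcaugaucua
miR167c: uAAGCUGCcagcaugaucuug
miR167d: uGAAGCUGccagcaugaucugg

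Sites complementary to miR160 with at most 4 mismatches were found in the transcripts of 3 of 27444 protein-coding genes, and these were ARF10, ARF16 and ARF17. Sites for miR167a were found in 7 genes, ARF6 and ARF8 among them. The limit of 4 mismatches was set after a limit of 3 had returned ARF8 and not ARF6. All 5 sites lie in coding exons, and the capitals mark the bases that differ from the perfect complement of the miRNA, G:U pairs included.
ARF17 site (chr1:29274189-29274209, plus strand): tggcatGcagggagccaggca
ARF10 site (chr2:12115741-12115761, plus strand): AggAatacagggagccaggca
ARF16 site (chr4:14704141-14704161, minus strand): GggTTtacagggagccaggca
ARF8 site (chr5:14633841-14633861, plus strand): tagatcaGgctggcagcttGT
ARF6 site (chr1:10686478-10686498, minus strand): GagatcaGgctggcagcttGT

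Auxin response elements, the binding letters of ARFs, were counted in the 300 bases before each annotated gene start on both strands. TGTCTC was present in 11 of 29 Aux/IAA and 2 of 15 ARF genes and in 13% of all 27443 promoters, and TGTCGG in 6, 2 and 4.91%. The 2 motifs share their first 4 letters and were counted separately. Either was present in 14 Aux/IAA and 4 ARF genes, against 17.3% of all promoters. CACGTG, the G-box to which basic helix-loop-helix and bZIP factors bind, was present in 4 Aux/IAA and 0 ARF promoters, against 7.09% of all. The last 200 bases before the start are shown for IAA19, which held 3 copies of TGTCTC, and IAA1, which held 1 of each element, because both genes rose in Col-0 low light. Capitals mark the elements, with GAGACA and CCGACA as their reverse complements.
IAA19 (chr3:5263801-5264000, plus strand): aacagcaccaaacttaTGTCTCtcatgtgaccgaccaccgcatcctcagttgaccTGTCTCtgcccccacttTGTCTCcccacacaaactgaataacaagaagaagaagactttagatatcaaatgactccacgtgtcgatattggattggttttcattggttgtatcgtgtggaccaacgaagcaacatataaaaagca
IAA1 (chr4:8360796-8360995, plus strand): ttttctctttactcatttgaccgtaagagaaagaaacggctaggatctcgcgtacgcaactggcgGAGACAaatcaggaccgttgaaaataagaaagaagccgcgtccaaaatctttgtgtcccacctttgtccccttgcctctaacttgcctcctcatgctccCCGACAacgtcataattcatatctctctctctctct

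IAA2, IAA4 and IAA14 held neither element in these 300 bases. Of the 11 tested Aux/IAA genes with an element, 6 were called higher and 2 lower in Col-0 low light, with a median log2FC of 0.68. Of the 12 without one, 7 were called higher and 3 lower, with a median of 0.22. Over all genes 29.1% were called higher and 28.9% lower in this comparison, with a median of -0.0072. These counts describe the window and say nothing about ARF binding, and no difference between the sets was tested.

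Levels spanned several orders of magnitude. IAA8 was the most abundant member, with group means from 295 to 397 TPM, followed by IAA9 (212 to 242 TPM) and ARF2 (193 to 242 TPM). The mean of IAA9 was above that of ARF2 in each of the 4 groups, with overlapping libraries in all but bhlh89,91 normal light. All 15 ARFs were between 6.86 TPM (ARF19 in bhlh89,91 normal light) and 242 TPM, whereas 6 Aux/IAA genes (IAA5, IAA6, IAA15, IAA29, IAA31 and IAA34) stayed under 1 CPM (a count scaled to library size) in every library and were not tested. That left 23 Aux/IAA and 15 ARF genes, 38 in all, that passed this filter. Summed over the family, Aux/IAA transcripts amounted to 945.6 ± 48.4 TPM (SD, n = 4) in Col-0 normal light, 1062 ± 38.3 TPM in Col-0 low light, 1038 ± 25.9 TPM in bhlh89,91 normal light and 957.1 ± 47.9 TPM in bhlh89,91 low light. The ARF sums were 860.0 ± 48.4, 906.9 ± 34.6, 870.8 ± 6.11 and 863.8 ± 46.4 TPM in the same order.

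**Figure D1:**
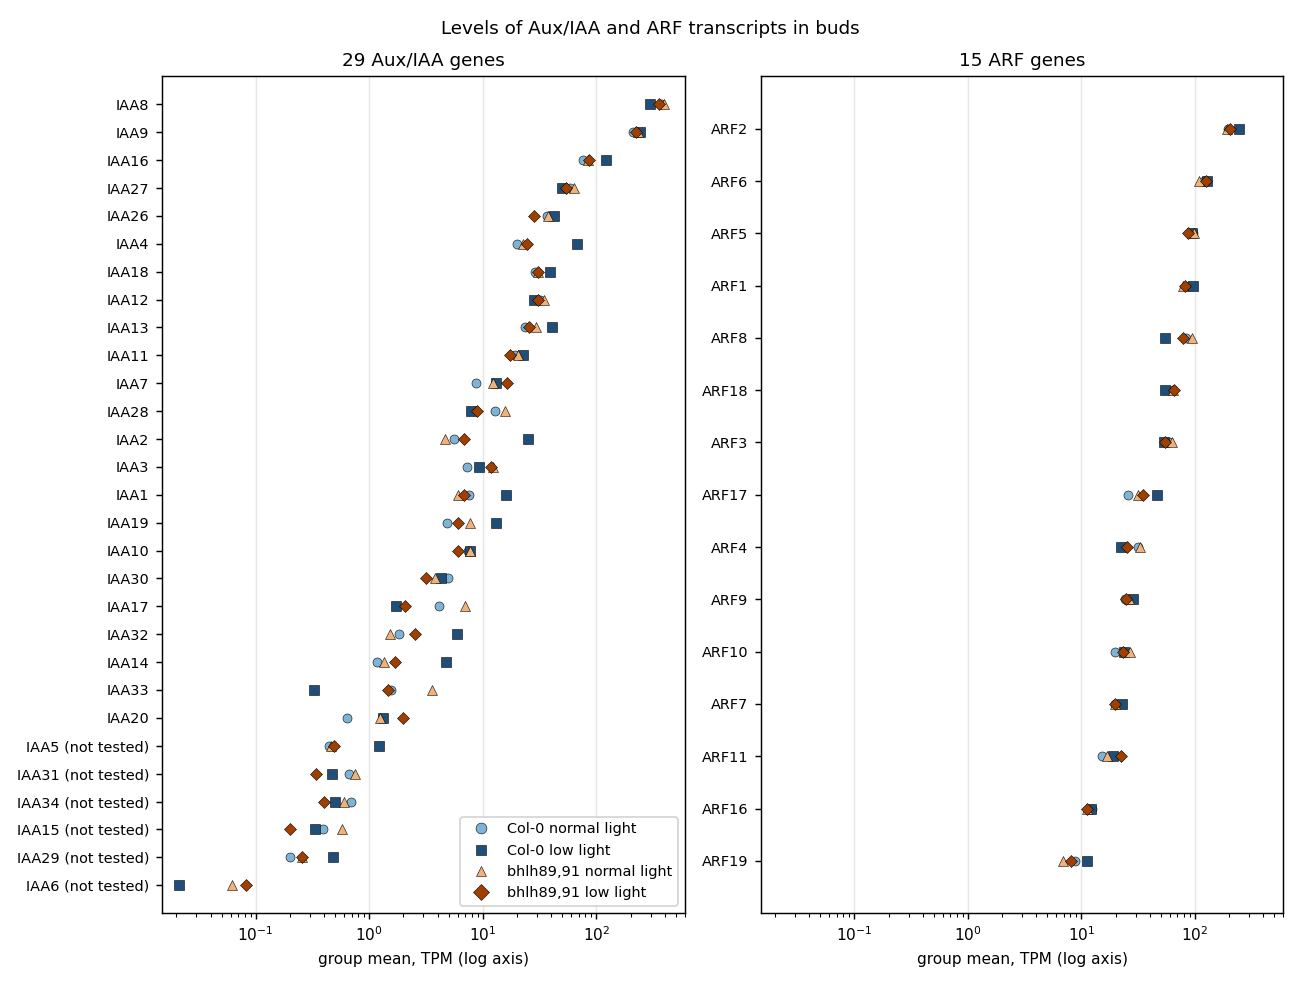
Group mean TPM (log axis) of the 29 Aux/IAA genes (left) and 15 ARF genes (right), 1 symbol per genotype and light group of 4 libraries, ordered by the mean over all libraries. ARFs sit within a narrower range than Aux/IAA genes, and the dark blue squares (Col-0 low light) stand apart from the other groups for IAA2, IAA4, IAA14, IAA19, IAA32 and IAA33. IAA6 in Col-0 normal light was at 0 and is not drawn.

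Low light raised 13 of the 23 tested Aux/IAA transcripts in Col-0 and lowered 5. With edgeR's quasi-likelihood F test and Benjamini-Hochberg adjustment over 21309 genes, 30 of 38 members were called at an adjusted p under 0.05, where 57.9% of all genes were called. Of these, 21 were higher in low light (29.1% of all genes were) and 9 lower (28.9%). The ARFs gave 8 higher and 4 lower of 15. The median log2FC was 0.36 for Aux/IAA and 0.12 for ARF genes, against -0.0072 for all genes, and the median absolute log2FC was 0.68 and 0.23 against 0.29. At the limits for a differentially expressed gene (DEG: a log2FC of 1 or more in either direction with an adjusted p below 0.01) 9 members were called, against 8.64% of all genes, and all 9 were Aux/IAA genes. Of these 7 were higher (5.86% of all genes) and 2 lower (2.78%). IAA20 (higher) and IAA33 (lower) are among the 9. Both stayed under 1 CPM in every Col-0 library and passed the filter through mutant libraries. Libraries of the 2 groups did not overlap in TPM for 25 of 38 members, against 53.1% of all genes.

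In bhlh89,91, 16 of 38 members were called between the light conditions, against 33.2% of all genes, with 5 higher (16.7% of all genes) and 11 lower (16.6%) in low light. The Aux/IAA genes gave 2 higher and 7 lower. Their median log2FC was -0.12, against -0.0013 for all genes. One member, IAA17, passed the DEG limits, against 3.42% of all genes (2.18% higher and 1.24% lower). Of the 21 members raised in Col-0, 4 were called higher in the mutant and 1 lower. Those 4 are 4 of the 5 members raised in the mutant. Of the 9 members lowered in Col-0, 8 were called lower in bhlh89,91, and these are 8 of its 11 lowered members. How often all genes called in Col-0 were also called in the mutant was not counted. These overlaps therefore have no background beside them. The light responses of the genotypes come from separate libraries.

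**Figure D2:**
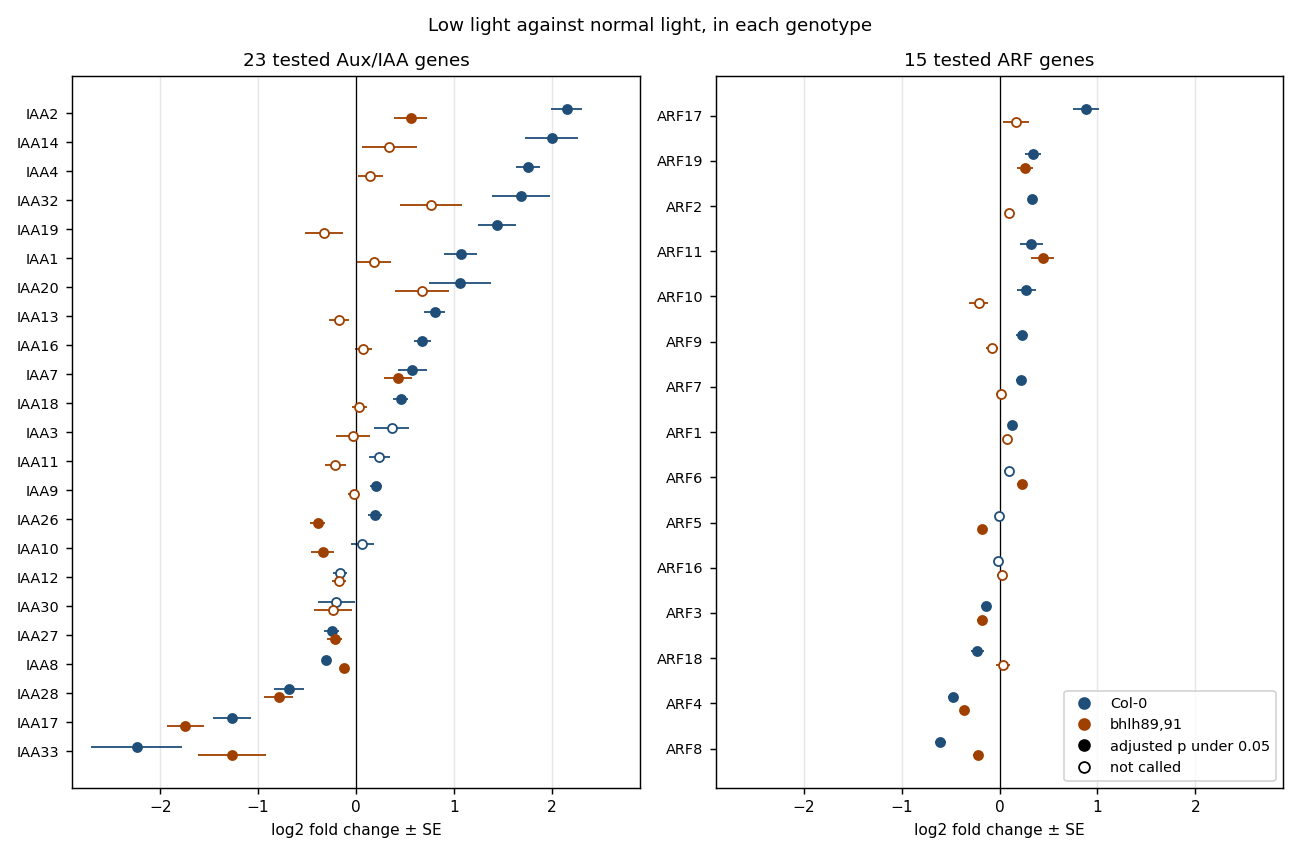
Log2 fold change ± SE of low against normal light for the 38 tested members, in Col-0 (blue) and bhlh89,91 (brown), 4 against 4 libraries each, ordered by the Col-0 value. Filled symbols have an adjusted p under 0.05. In the upper part of the Aux/IAA panel the blue symbols of IAA2 to IAA18 lie from 0.46 to 2.15 and their brown symbols from -0.33 to 0.76, each left of the blue one, while at the bottom both genotypes lie below 0.

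The difference of the light responses (bhlh89,91 minus Col-0) was tested for each gene as an interaction. It was called for 16 of 38 members, against 23.0% of all genes, with 14 below 0 (11.1% of all genes) and 2 above (11.9%). The median was -0.42 for Aux/IAA and -0.046 for ARF genes, against 0.0020 for all genes. IAA2, IAA4, IAA14 and IAA19 passed the DEG limits, all below 0, where 2.33% of all genes did (0.582% above and 1.75% below 0). The interaction shares its libraries with every other comparison, so the values of each gene are given side by side below.

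Within low light, the mutant differed from Col-0 at 24 of 38 members, against 49.4% of all genes, with 19 lower (24.3% of all genes) and 5 higher (25.1%). Among the Aux/IAA genes 12 were lower and 2 higher, with a median log2FC of -0.34 against 0.0043 for all genes, and 7 passed the DEG limits against 6.18% of all genes, 1 higher (2.58%) and 6 lower (3.60%). The 1 higher was IAA33, which stayed under 1 CPM in every Col-0 library. Within normal light, 11 of 38 were called, against 16.7% of all genes, with 9 higher (9.00%) and 2 lower (7.66%). The Aux/IAA genes gave 7 higher and 0 lower, with IAA20 and IAA33 among the 7. None passed the DEG limits, which 1.59% of all genes did (0.892% higher and 0.695% lower). That count was the least stable of the 5: without Col-0 normal light library 1, 3 or 4, or without bhlh89,91 normal light library 1 or 2, it was 6 or 7. The low-light comparison shares the Col-0 low light libraries with the Col-0 light response.

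**Figure D3:**
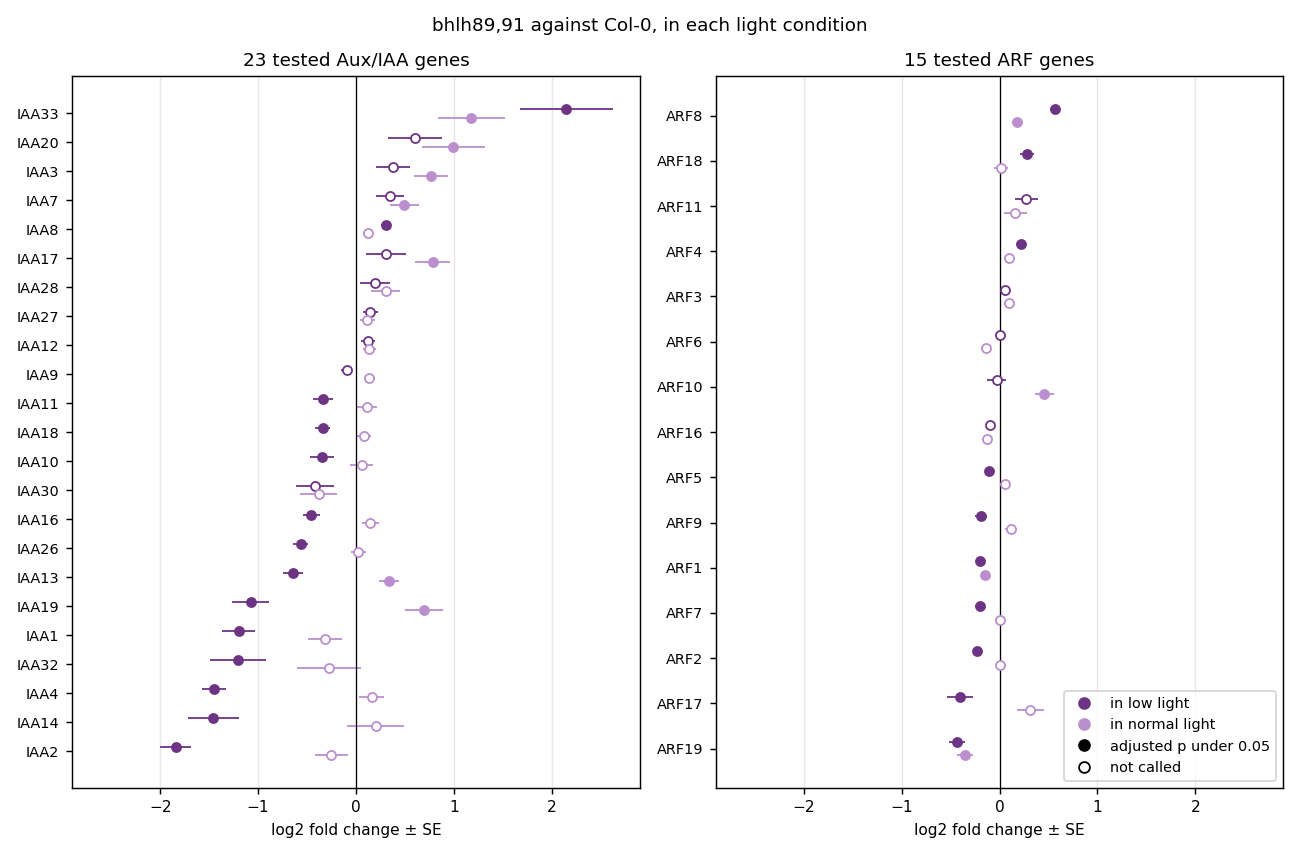
Log2 fold change ± SE of bhlh89,91 against Col-0 for the 38 tested members, in low light (dark purple) and in normal light (light purple), 4 against 4 libraries each, ordered by the low-light value. Filled symbols have an adjusted p under 0.05. IAA2, IAA14, IAA4, IAA32, IAA1 and IAA19 lie below -1 in low light, and only IAA33 lies above 1 with a call in both.

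Markers of the organs in the buds moved with light as well. Beside the counts below, 29.1% of all genes were called higher and 28.9% lower in Col-0 low light. In bhlh89,91 low light the shares were 16.7% and 16.6%. In Col-0 low light 10 of 13 tapetum genes were called lower and 0 higher, and in bhlh89,91 low light 8 of 13 lower and 0 higher. Their summed level was 4310 to 5770 TPM in Col-0 normal light, 2800 to 3360 in Col-0 low light, 4090 to 5240 in bhlh89,91 normal light and 2280 to 4040 in bhlh89,91 low light. Meiosis genes were called lower at 4 of 7 in Col-0 and 3 of 7 in bhlh89,91, and summed to 59.3 to 65.8, 39.4 to 43.4, 58.0 to 66.5 and 46.2 to 56.2 TPM in the same order of groups. Gynoecium and ovule genes were called higher at 5 of 7 in Col-0 and 4 of 7 in bhlh89,91, with sums of 173 to 187, 199 to 219, 155 to 174 and 179 to 223 TPM. Green tissue genes were called lower at 4 of 5 in Col-0 and 3 of 5 in bhlh89,91, with sums of 12100 to 12600, 9510 to 10400, 11600 to 14400 and 10400 to 11800 TPM. Of 7 floral organ identity genes, 3 were called higher and 3 lower in Col-0 low light and 0 higher and 3 lower in bhlh89,91 low light. No gene of these 5 lists was at 0 in all libraries of a group. Late pollen genes summed to 15.3 to 57.9 TPM in Col-0 normal light, 68.1 to 78.5 in Col-0 low light, 12 to 17.3 in bhlh89,91 normal light and 12.4 to 30.5 in bhlh89,91 low light. In that list 1 of 7 tested genes, MYB101, was higher in Col-0 low light (53.9 to 70.6 TPM against 7.51 to 10.2 in Col-0 normal light), and 1, AGP6, was lower (log2FC -1.24 ± 0.47 (SE), adjusted p = 0.0347). The median log2FC of the list there was -0.87. The other 8 genes of the list summed to 5.19 to 49.7, 7.23 to 14.2, 3.98 to 8.27 and 1.68 to 16.8 TPM. What part shifts in organ make-up or stage have in these marker levels, and in the Aux/IAA and ARF results, was not tested.

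The canonical repressors IAA2 (AT3G23030), IAA4 (AT5G43700), IAA14 (AT4G14550) and IAA19 (AT3G15540) were those with interactions at the DEG limits. Log2FC values below are followed by their SE. IAA2, an early auxin-induced gene, stood at 5.44, 4.73, 6.23 and 6.02 TPM in Col-0 normal light and at 25.9, 25.4, 24.4 and 23.7 TPM in Col-0 low light (log2FC 2.15 ± 0.16, adjusted p = 3.65e-08). Levels in bhlh89,91 were 5.22, 4.57, 3.81 and 5.16 TPM in normal light and 5.98, 7.53, 4.76 and 8.85 TPM in low light (log2FC 0.56 ± 0.17, adjusted p = 0.017). Every Col-0 low light library was above all 12 others, while the mutant's 2 light groups overlapped. In low light the mutant was below Col-0 (log2FC -1.84 ± 0.15, adjusted p = 4.18e-07), and the interaction was -1.59 (adjusted p = 0.000273). The smaller rise in the mutant was no longer called without bhlh89,91 low light library 4 or normal light library 3 (adjusted p up to 0.0615). Nor was it called when edgeR was fitted to only the groups compared (adjusted p = 0.0731).

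IAA4 showed the same shape at a higher level. Its TPM was 18.4, 20.9, 20.3 and 20.9 in Col-0 normal light and 68.5, 65.4, 68.2 and 68.97 in Col-0 low light (log2FC 1.76 ± 0.12, adjusted p = 2.82e-08). The mutant's libraries held 21.5, 23.4, 24.2 and 20.41 TPM in normal and 21.8, 18.4, 25.9 and 31.4 TPM in low light (log2FC 0.15 ± 0.13, adjusted p = 0.392). The mutant's low light libraries spread from below to above its normal light range and stayed far under the Col-0 low light libraries (log2FC -1.45 ± 0.12, adjusted p = 4.5e-07). The interaction was -1.61 (adjusted p = 5.07e-05).

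IAA14, known as SOLITARY-ROOT for its block of lateral roots when stabilised, was far less abundant. It stood at 1.27, 1.004, 1.17 and 1.25 TPM in Col-0 normal light and at 5.01, 4.93, 4.65 and 4.21 TPM in Col-0 low light (log2FC 2.0 ± 0.27, adjusted p = 1.62e-05). In the mutant it stood at 0.863, 1.897, 1.94 and 0.661 TPM in normal light and 1.27, 1.38, 2.22 and 1.89 TPM in low light (log2FC 0.34 ± 0.28, adjusted p = 0.381). The lowest Col-0 low light library was above every other library of the series. The genotypes differed in low light (log2FC -1.46 ± 0.27, adjusted p = 0.000336) and in their responses (log2FC -1.66 ± 0.39, adjusted p = 0.00734). IAA14 shared 0.863% of its 31-base words with IAA7.

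IAA19, known as MASSUGU2 and for its part in hypocotyl bending, held 4.45, 5.35, 5.45 and 4.05 TPM in Col-0 normal light and 11.4, 15.6, 15.5 and 9.57 TPM in Col-0 low light (log2FC 1.44 ± 0.19, adjusted p = 1.28e-05). In the mutant it held 6.58, 10.2, 8.23 and 6.17 TPM in normal light and 6.91, 6.13, 4.96 and 6.36 TPM in low light (log2FC -0.33 ± 0.19, adjusted p = 0.204). The Col-0 groups did not overlap, and the mutant's groups did. In normal light the mutant was above Col-0 (log2FC 0.70 ± 0.20, adjusted p = 0.0241), a call lost without any 1 of 4 libraries (bhlh89,91 normal light 2 or 3, Col-0 normal light 1 or 4; adjusted p up to 0.0832). In low light it was below Col-0 (log2FC -1.07 ± 0.19, adjusted p = 0.000258). The interaction, -1.77 (adjusted p = 0.000469), was the lowest of the 38 members.

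IAA1 (AT4G14560), another early auxin-induced repressor, stood at 6.84, 6.78, 7.41 and 9.48 TPM in Col-0 normal light and 13.2, 19.6, 16.6 and 14.5 TPM in Col-0 low light (log2FC 1.07 ± 0.17, adjusted p = 5.01e-05). The mutant held 5.66, 7.14, 6.23 and 5.38 TPM in normal light and 7.39, 6.602, 5.26 and 8.08 TPM in low light (log2FC 0.19 ± 0.17, adjusted p = 0.439). All 4 Col-0 low light libraries exceeded the rest. The difference between genotypes in low light was -1.20 (adjusted p = 3.28e-05) and the interaction -0.88 (adjusted p = 0.0155).

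IAA13 (AT2G33310), IAA16 (AT3G04730) and IAA18 (AT1G51950) repeated this pattern with smaller changes. IAA13, a close relative of BODENLOS (IAA12) in embryonic root formation, stood at 24.7, 25.9, 23.7 and 19.3 TPM in Col-0 normal light and 39.5, 43.99, 41.3 and 37.7 TPM in Col-0 low light (log2FC 0.81 ± 0.10, adjusted p = 1e-05). In bhlh89,91 the libraries read 29.7, 28.4, 33.98 and 25.2 TPM in normal light and 27.9, 20.96, 27.4 and 26.3 TPM in low light (log2FC -0.17 ± 0.11, adjusted p = 0.222). The Col-0 low light libraries were again above all others, with a genotype difference in low light of -0.64 (adjusted p = 0.000131) and an interaction of -0.98 (adjusted p = 0.000429). Its exons overlap an antisense gene, and without strand in the libraries as described, reads from the overlap cannot be told apart. In normal light the mutant's level was called higher (log2FC 0.34 ± 0.11, adjusted p = 0.0404), but not without any 1 of 7 libraries (adjusted p up to 0.136): Col-0 normal light 1, 3 or 4, Col-0 low light 3, or bhlh89,91 normal light 1, 2 or 3.

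IAA16 held 80.1, 79.7, 73.4 and 72.1 TPM in Col-0 normal light and 122, 126, 121 and 117 TPM in Col-0 low light (log2FC 0.68 ± 0.087, adjusted p = 8.77e-06). In bhlh89,91 the level was 84.4, 79.5, 89.1 and 82.97 TPM in normal light and 87.5, 68.6, 90.4 and 101 TPM in low light (log2FC 0.073 ± 0.087, adjusted p = 0.551). The genotypes differed in low light (log2FC -0.46 ± 0.087, adjusted p = 0.000483) and in response (log2FC -0.61 ± 0.12, adjusted p = 0.00284). For IAA18, which acts in embryo and root patterning, the values were 30.8, 26.8, 28.2 and 29.4 TPM in Col-0 normal light and 38.7, 45.1, 33.9 and 39.7 TPM in Col-0 low light (log2FC 0.46 ± 0.074, adjusted p = 7.81e-05). The mutant's values were 31.03, 29.2, 29.3 and 31.9 TPM in normal light and 29.1, 31.4, 28.8 and 32.9 TPM in low light (log2FC 0.034 ± 0.074, adjusted p = 0.759). Both genes had Col-0 low light libraries above all others and overlapping light groups in the mutant. IAA18 gave -0.34 (adjusted p = 0.00139) between genotypes in low light and an interaction of -0.42 (adjusted p = 0.00929).

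IAA26 (AT3G16500) and IAA11 (AT4G28640) had lower mean levels in low than in normal light in the mutant. IAA26 stood at 40.8, 36.5, 36.1 and 34.4 TPM in Col-0 normal light and 36.2, 43.6, 43.3 and 44.7 TPM in Col-0 low light (log2FC 0.19 ± 0.075, adjusted p = 0.0373), groups that overlapped. In bhlh89,91 it fell from 39.3, 31.9, 37.9 and 39.9 TPM in normal light to 27.96, 27.04, 28.6 and 28.2 TPM in low light (log2FC -0.39 ± 0.076, adjusted p = 0.00109), without overlap. The rise in Col-0 was not called without any 1 of 6 libraries, Col-0 low light 2, 3 or 4 or normal light 2, 3 or 4 (adjusted p up to 0.105). The interaction was -0.59 (adjusted p = 0.00142) and the genotype difference in low light -0.56 (adjusted p = 2.45e-05).

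IAA11 held 21.8, 17.4, 19.3 and 18 TPM in Col-0 normal light and 21, 20.97, 22.3 and 25.5 TPM in Col-0 low light (log2FC 0.24 ± 0.10, adjusted p = 0.0581). In the mutant it held 22.5, 17.9, 22.2 and 19.5 TPM in normal light and 20.8, 16.97, 17.5 and 14.6 TPM in low light (log2FC -0.21 ± 0.10, adjusted p = 0.134). Neither light response was called, and the interaction was (log2FC -0.45 ± 0.15, adjusted p = 0.0374), although not without any 1 of 10 libraries (adjusted p up to 0.0844), which were bhlh89,91 low light 2, 3 or 4 and normal light 1 or 3, and Col-0 low light 3 or 4 and normal light 2, 3 or 4. In low light the mutant was lower (log2FC -0.34 ± 0.10, adjusted p = 0.0136), except without Col-0 low light library 4 (adjusted p = 0.0519). IAA10 (AT1G04100), its close relative, was lower in the mutant in low light (log2FC -0.35 ± 0.12, adjusted p = 0.025) and lower in low than in normal light within the mutant (log2FC -0.34 ± 0.12, adjusted p = 0.0393). The genotype call did not hold without bhlh89,91 low light 3 or Col-0 low light 3 or 4 (adjusted p up to 0.0818). The light call was lost without any 1 of 6 of the mutant's 8 libraries, bhlh89,91 low light 2, 3 or 4 and normal light 1, 2 or 3 (adjusted p up to 0.122). For IAA10 the interaction was not called (adjusted p = 0.0946). Both IAA10 and IAA11 overlap antisense genes.

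IAA7 (AT3G23050), known as AXR2, rose in both genotypes, from 8.74 ± 1.15 to 12.9 ± 1.2 TPM in Col-0 (SD, n = 4; log2FC 0.58 ± 0.15, adjusted p = 0.00341) and from 12.2 ± 1.47 to 16.2 ± 3.4 TPM in bhlh89,91 (log2FC 0.43 ± 0.14, adjusted p = 0.0305). The mutant's call was lost without bhlh89,91 low light 1 or 4 or normal light 2 or 4 (adjusted p up to 0.104). IAA9 (AT5G65670), whose tomato counterpart restrains fruit set and leaf outgrowth, rose in Col-0 alone by call (log2FC 0.21 ± 0.058, adjusted p = 0.00633). The interaction of IAA9 was -0.23 (adjusted p = 0.0536), so a difference between the genotypes was not shown. IAA3 (AT1G04240), known as SHY2, was not called for light in either genotype and was higher in bhlh89,91 than in Col-0 in normal light (log2FC 0.77 ± 0.18, adjusted p = 0.00882). IAA7 was also higher there (log2FC 0.49 ± 0.15, adjusted p = 0.0325), a call lost without any 1 of 5 libraries, bhlh89,91 normal light 1 or 3 or Col-0 normal light 1, 2 or 4 (adjusted p up to 0.1). IAA12 (AT1G04550) was called in none of the 5 comparisons.

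Not every canonical repressor rose. IAA17 (AT1G04250), known as AXR3, fell from 5.12, 4.76, 3.74 and 2.87 to 2.24, 1.4, 1.396 and 1.79 TPM in Col-0 (log2FC -1.26 ± 0.20, adjusted p = 5.13e-05). In bhlh89,91 it fell from 8.22, 6.04, 6.82 and 7.06 to 2.41, 2.32, 1.88 and 1.65 TPM (log2FC -1.74 ± 0.19, adjusted p = 8.68e-06). Light groups did not overlap in either genotype, and the interaction was not called (adjusted p = 0.222). In normal light the mutant's level was above that of Col-0 (log2FC 0.78 ± 0.18, adjusted p = 0.00794). IAA28 (AT5G25890), a repressor of lateral root formation, fell in Col-0 (log2FC -0.68 ± 0.15, adjusted p = 0.00131) and in bhlh89,91 (log2FC -0.79 ± 0.15, adjusted p = 0.000987).

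IAA8 (AT2G22670), the most abundant member, fell by less. It held 379, 373, 372 and 346 TPM in Col-0 normal light and 297, 316, 288 and 279.6 TPM in Col-0 low light (log2FC -0.31 ± 0.044, adjusted p = 2.51e-05). In the mutant it held 383, 399.8, 406 and 398 TPM in normal light and 386, 337, 371 and 342 TPM in low light (log2FC -0.12 ± 0.044, adjusted p = 0.0415). The Col-0 groups were separate and those of the mutant overlapped, and the mutant was above Col-0 in low light (log2FC 0.30 ± 0.044, adjusted p = 4.68e-05). The mutant's response and the interaction (0.18, adjusted p = 0.0441) stood close to the threshold. The former was lost without any 1 of 7 libraries (bhlh89,91 low light 2, 3 or 4 or normal light 2 or 3, or Col-0 normal light 2 or 3; adjusted p up to 0.115). The interaction was lost without any 1 of 11 (adjusted p up to 0.0892), that is every library except bhlh89,91 low light 2 and 4, bhlh89,91 normal light 3, Col-0 low light 2 and Col-0 normal light 4. IAA27 (AT4G29080) fell in Col-0 (log2FC -0.25 ± 0.077, adjusted p = 0.0129) and in the mutant (log2FC -0.22 ± 0.077, adjusted p = 0.0421). The first did not hold without Col-0 normal light library 2 (adjusted p = 0.0551). The second was lost without any 1 of 8 libraries (adjusted p up to 0.131): any of the bhlh89,91 low light libraries, bhlh89,91 normal light 2 or 4, Col-0 low light 2 or Col-0 normal light 1. IAA27 overlaps an antisense gene, as does IAA3.

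Among the non-canonical genes without degron codons, 4 of 6 were tested. IAA32 (AT2G01200) stood at 1.78, 1.13, 2.75 and 1.69 TPM in Col-0 normal light and 5.83, 6.31, 5.91 and 5.76 TPM in Col-0 low light (log2FC 1.69 ± 0.29, adjusted p = 0.000158). In the mutant it stood at 1.11, 1.39, 1.82 and 1.82 TPM in normal light and 2.004, 1.81, 1.88 and 4.42 TPM in low light (log2FC 0.76 ± 0.32, adjusted p = 0.0766). One mutant low light library, at 4.42 TPM, was apart from the other 3 (1.81 to 2.0 TPM). The genotypes differed in low light (log2FC -1.20 ± 0.29, adjusted p = 0.00266), and the interaction was not called (adjusted p = 0.14). Its exons overlap an antisense gene.

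IAA33 (AT5G57420), known from the root tip, ran the other way. It stood at 1.93, 1.49, 1.51 and 1.35 TPM in Col-0 normal light and 0.407, 0.192, 0.198 and 0.497 TPM in Col-0 low light (log2FC -2.24 ± 0.47, adjusted p = 0.000722), where the 4 libraries held 13 counts in all. Levels in bhlh89,91 were 4.92, 3.16, 2.44 and 3.65 TPM in normal light and 2.23, 0.774, 2.13 and 0.677 TPM in low light (log2FC -1.27 ± 0.35, adjusted p = 0.0107). In low light every mutant library was above every Col-0 library (log2FC 2.15 ± 0.47, adjusted p = 0.00145), and the same held in normal light (log2FC 1.18 ± 0.34, adjusted p = 0.0279). The normal light call was lost without any 1 of 4 libraries, bhlh89,91 normal light 1 or Col-0 normal light 2, 3 or 4 (adjusted p up to 0.0906). The interaction was not called (adjusted p = 0.252). IAA33 stayed under 1 CPM in every Col-0 library and passed the filter only through mutant libraries, where it was higher. Its Col-0 values therefore lie near the floor.

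IAA20 (AT2G46990), whose protein is long-lived, held 0.631, 0.571, 0.396 and 0.945 TPM in Col-0 normal light and 1.25, 1.33, 1.45 and 1.3 TPM in Col-0 low light (log2FC 1.07 ± 0.32, adjusted p = 0.00894). The mutant held 1.12, 1.75, 0.858 and 1.27 TPM in normal light and 2.204, 2.68, 1.72 and 1.34 TPM in low light (log2FC 0.68 ± 0.28, adjusted p = 0.0742). IAA20 had an interaction of -0.39 ± 0.42 (adjusted p = 0.54), so a difference between the light responses was not shown. In normal light the mutant was called higher (log2FC 1.00 ± 0.32, adjusted p = 0.0426), a call lost without any 1 of 12 libraries (adjusted p up to 0.135), namely every Col-0 low light library, Col-0 normal light 1, 2 or 3, bhlh89,91 normal light 1, 2 or 4, and bhlh89,91 low light 1 or 3. Its 4 libraries held 33 counts in all in Col-0 normal light, 67 in Col-0 low light, 62 in bhlh89,91 normal light and 101 in bhlh89,91 low light. IAA20 reached 1 CPM only in bhlh89,91 low light, the group where it was highest. It was absent from fits of Col-0 alone, of normal light alone and at 1 CPM in at least 4 libraries. It shared 2.63% of its 31-base words with IAA30 (AT3G62100), which was called in no comparison.

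**Figure D4:**
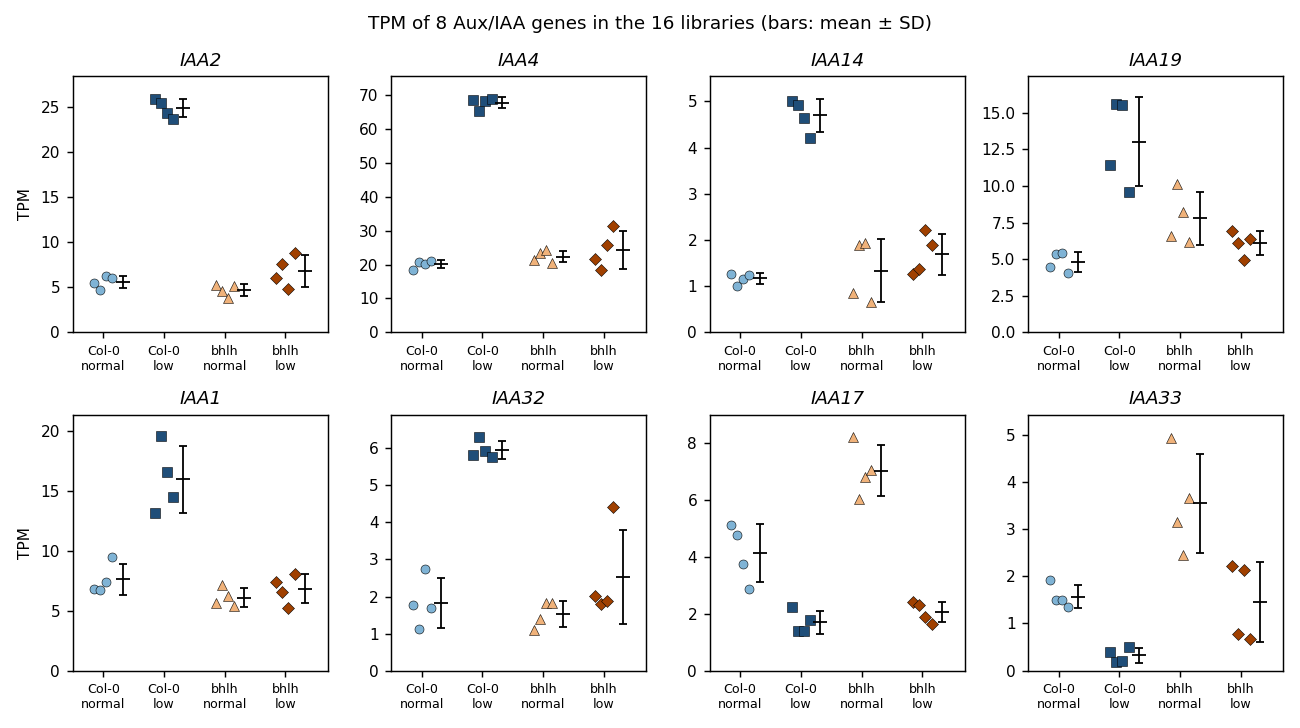
TPM (linear axes from 0) of 8 Aux/IAA genes in the 16 libraries, 1 symbol per library, with the mean ± SD of each group of 4 to its right. For IAA2, IAA4, IAA14, IAA19, IAA1 and IAA32 the Col-0 low light libraries lie highest, with IAA19 overlapping bhlh89,91 normal light. IAA17 and IAA33 are lower in low light in both genotypes.

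By degron form, the 13 tested Aux/IAA genes with the longer codon run gave 10 higher and 2 lower in Col-0 low light (median log2FC 0.58). The 6 with the shorter run gave 1 higher and 2 lower (median -0.048), and the 4 with neither gave 2 higher and 1 lower (median 0.43). In bhlh89,91 the same forms gave 2 higher and 3 lower, 0 higher and 3 lower, and 0 higher and 1 lower. The interaction was called below 0 for 8 of 13, 2 of 6 and 0 of 4. Over all genes 29.1% were called higher and 28.9% lower in Col-0 low light, 16.7% higher and 16.6% lower in bhlh89,91, and 11.1% below 0 in the interaction. The forms differ in number and in level, and no difference between them was tested.

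ARFs that activate transcription carry glutamine-rich middle regions, and 5 were tested. ARF5 (AT1G19850), known as MONOPTEROS and required for flower primordia, held 99.7, 99.4, 92.2 and 91.5 TPM in Col-0 normal light and 99.8, 94.7, 91.3 and 91.8 TPM in Col-0 low light (log2FC -0.011 ± 0.041, adjusted p = 0.831). In bhlh89,91 it fell from 97.4, 101, 96.8 and 99.4 TPM in normal light to 88.8, 84.7, 92.3 and 78.9 TPM in low light (log2FC -0.17 ± 0.041, adjusted p = 0.00413), without overlap. The interaction just missed the threshold (log2FC -0.16 ± 0.058, adjusted p = 0.0523). The genotype difference in low light (log2FC -0.11 ± 0.041, adjusted p = 0.0359) was lost without any 1 of 5 libraries, bhlh89,91 low light 2 or 4, normal light 3, or Col-0 low light 1 or 2 (adjusted p up to 0.106). An antisense gene overlaps ARF5.

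ARF8 (AT5G37020) and ARF6 (AT1G30330), the miR167 targets that promote stamen filament growth, anther dehiscence and gynoecium maturation, differed in their calls. ARF8 fell from 92, 85.6, 80.96 and 73.2 to 55.7, 57.6, 51.7 and 51.8 TPM in Col-0 (log2FC -0.60 ± 0.054, adjusted p = 2.56e-07). In the mutant it fell from 91.8, 96.1, 89.9 and 95.9 to 84.6, 76.2, 76.02 and 78.7 TPM (log2FC -0.22 ± 0.054, adjusted p = 0.00533). No light groups overlapped, and the fall was smaller in the mutant (interaction 0.38, adjusted p = 0.00254). The mutant was above Col-0 in low light (log2FC 0.56 ± 0.054, adjusted p = 1.31e-06) and, by less, in normal light (log2FC 0.18 ± 0.054, adjusted p = 0.0302). The normal light call was lost without any 1 of 5 libraries, bhlh89,91 normal light 1, 2 or 4 or Col-0 normal light 3 or 4 (adjusted p up to 0.094).

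ARF6 held 132, 118, 119 and 112 TPM in Col-0 normal light and 131, 129, 126 and 123 TPM in Col-0 low light (log2FC 0.091 ± 0.049, adjusted p = 0.122). In bhlh89,91 it rose from 106, 106, 105 and 118 to 126, 121, 122 and 131 TPM (log2FC 0.23 ± 0.049, adjusted p = 0.0022). The interaction was not called (adjusted p = 0.165). ARF7 (AT5G20730) and ARF19 (AT1G19220), paired regulators of lateral root formation, rose in Col-0 (log2FC 0.22 ± 0.052, adjusted p = 0.00182 for ARF7; log2FC 0.34 ± 0.08, adjusted p = 0.00188 for ARF19). ARF19 was lower in the mutant in both light conditions (log2FC -0.35 ± 0.081, adjusted p = 0.00819 in normal light; log2FC -0.43 ± 0.08, adjusted p = 0.000364 in low light). ARF7 was lower in the mutant in low light (log2FC -0.20 ± 0.052, adjusted p = 0.00515), and its interaction was not called (adjusted p = 0.0552). ARF19 rose in the mutant (log2FC 0.26 ± 0.081, adjusted p = 0.0229), except without bhlh89,91 low light 2 or 4 (adjusted p up to 0.068). ARF7 overlaps an antisense gene, and ARF19 another gene on its own strand.

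The 3 miR160 targets differed from each other. ARF17 (AT1G77850), needed for callose and pollen wall formation, rose from 28.2, 26.04, 26.5 and 21.02 to 48.1, 45.5, 41.8 and 50.8 TPM in Col-0 (log2FC 0.88 ± 0.14, adjusted p = 4.7e-05), the largest log2FC among the ARFs in this comparison. In bhlh89,91 the libraries read 32.4, 34.3, 34.6 and 23.97 TPM in normal light and 40.97, 28.5, 41.04 and 28.3 TPM in low light (log2FC 0.16 ± 0.13, adjusted p = 0.371). The mutant's groups overlapped and those of Col-0 did not, with an interaction of -0.72 (adjusted p = 0.0138). In low light the mutant was lower (log2FC -0.40 ± 0.13, adjusted p = 0.0203), a call lost without bhlh89,91 low light 2 or 4 or Col-0 low light 4 (adjusted p up to 0.0644). CALS5, the callose synthase gene whose promoter ARF17 binds, was lower in Col-0 low light (log2FC -0.70 ± 0.12, adjusted p = 9.35e-05). In bhlh89,91 its value was -0.30 ± 0.12 (adjusted p = 0.0596), and the interaction was not called (adjusted p = 0.0898).

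ARF10 (AT2G28350), with a site of 2 mismatches, held 19.8, 20.6, 20.1 and 18.7 TPM in Col-0 normal light and 23.6, 24.9, 22.4 and 24.2 TPM in Col-0 low light (log2FC 0.27 ± 0.094, adjusted p = 0.0211). Without Col-0 low light library 2 this was not called (adjusted p = 0.0527). In bhlh89,91 the level was 28.5, 28.5, 28.4 and 22.6 TPM in normal light and 26.9, 21.1, 25.2 and 18.6 TPM in low light (log2FC -0.22 ± 0.094, adjusted p = 0.0894). The mutant was above Col-0 in normal light without overlap (log2FC 0.46 ± 0.094, adjusted p = 0.00431), and the interaction was -0.49 (adjusted p = 0.0156).

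ARF16 (AT4G30080), which acts with ARF10 in the root cap, was called in none of the 5 comparisons. Its libraries held 12.3, 12.7, 12.7 and 11.95 TPM in Col-0 normal light, 12.7, 11.5, 12.2 and 12.6 TPM in Col-0 low light, 11.7, 10.5, 11.2 and 11.6 TPM in bhlh89,91 normal light and 11.5, 10.7, 11.7 and 11.2 TPM in bhlh89,91 low light. Its light responses were -0.013 ± 0.048 in Col-0 and 0.023 ± 0.048 in the mutant (log2FC ± SE).

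The remaining 7 ARFs are repressors of transcription or lack an activating region. ARF3 (AT2G33860), known as ETTIN, which patterns the gynoecium, held 60.6, 61.4, 56.8 and 56.5 TPM in Col-0 normal light and 58.1, 54.4, 49.99 and 49.99 TPM in Col-0 low light (log2FC -0.14 ± 0.051, adjusted p = 0.0283). Levels in bhlh89,91 were 60.4, 63.2, 62.6 and 63.97 TPM in normal light and 60.5, 53.9, 53.5 and 50.2 TPM in low light (log2FC -0.18 ± 0.051, adjusted p = 0.0137). Light groups overlapped in both genotypes, and the call in Col-0 did not hold without low light 3 or 4 or normal light 1 or 2 of that genotype (adjusted p up to 0.0944). ARF4 (AT5G60450), its partner in lower leaf surface identity, fell in Col-0 (log2FC -0.48 ± 0.046, adjusted p = 4.44e-07) and in the mutant (log2FC -0.36 ± 0.046, adjusted p = 3.28e-05), with an interaction that was not called (adjusted p = 0.194).

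ARF2 (AT5G62000), the most abundant ARF and a regulator of organ size and flower ageing, rose from 204, 197, 192 and 181 to 251, 256, 229.9 and 233 TPM in Col-0 (log2FC 0.33 ± 0.046, adjusted p = 1.62e-05). In bhlh89,91 the libraries read 199, 193, 192 and 186 TPM in normal light and 208, 191, 218 and 195 TPM in low light (log2FC 0.099 ± 0.046, adjusted p = 0.11). The interaction was -0.24 (adjusted p = 0.0168), and the mutant was below Col-0 in low light (log2FC -0.23 ± 0.046, adjusted p = 0.000669). ARF9 (AT4G23980) rose from 25.2, 25.3, 23.1 and 23.8 to 28.4, 28.9, 28.2 and 27.7 TPM in Col-0 (log2FC 0.23 ± 0.062, adjusted p = 0.00566). The mutant held 28.1, 27.8, 26.1 and 22.6 TPM of ARF9 in normal light and 25.97, 23.4, 24.3 and 24.1 TPM in low light (log2FC -0.078 ± 0.062, adjusted p = 0.358). Its interaction was -0.30 (adjusted p = 0.0214), and the genotype difference in low light -0.19 (adjusted p = 0.0194).

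ARF18 (AT3G61830) fell in Col-0 (log2FC -0.23 ± 0.071, adjusted p = 0.0121) and was higher in the mutant in low light (log2FC 0.28 ± 0.071, adjusted p = 0.00436). Its interaction was not called (adjusted p = 0.0669). ARF11 (AT2G46530) rose in Col-0 (log2FC 0.33 ± 0.12, adjusted p = 0.0281) and in bhlh89,91 (log2FC 0.44 ± 0.12, adjusted p = 0.00974). The first of these did not hold without low light 1 or 2 or normal light 3 or 4 of Col-0 (adjusted p up to 0.0962). ARF1 (AT1G59750), which acts with ARF2 in flower ageing, was lower in the mutant in low light (log2FC -0.20 ± 0.041, adjusted p = 0.000982) and in normal light (log2FC -0.15 ± 0.041, adjusted p = 0.0209), the latter lost without Col-0 normal light 1 (adjusted p = 0.0617). Its rise in Col-0 (log2FC 0.12 ± 0.041, adjusted p = 0.0176) was lost without Col-0 low light 1 or normal light 3 (adjusted p up to 0.0626). ARF1 overlaps an antisense gene.

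**Figure D5:**
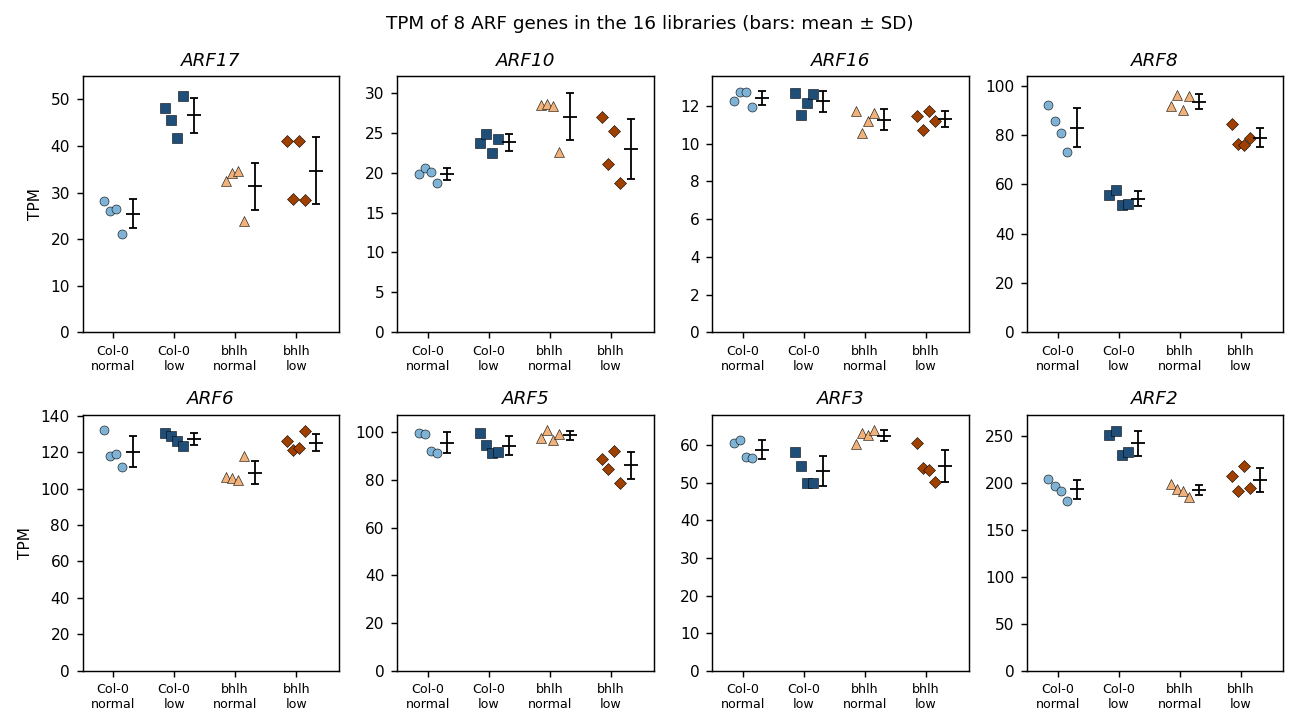
TPM (linear axes from 0) of 8 ARF genes in the 16 libraries, 1 symbol per library, with the mean ± SD of each group of 4 to its right. ARF17 and ARF2 are highest and ARF8 is lowest in Col-0 low light, while the 4 groups of ARF16 lie between 10.5 and 12.7 TPM.

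Other genes of the pathway were counted by list. Over all genes 29.1% were called higher and 28.9% lower in Col-0 low light, and 16.7% and 16.6% in bhlh89,91. An interaction below 0 was called for 11.1% of all genes, and 24.3% were lower in bhlh89,91 than in Col-0 in low light. Of the 6 auxin receptor genes, 3 were called higher and 0 lower in Col-0 low light, led by TIR1 (log2FC 0.54 ± 0.059 (SE), adjusted p = 1.71e-06), and 2 higher and 0 lower in bhlh89,91. The interaction was called below 0 for 2, TIR1 (-0.36 ± 0.083, adjusted p = 0.00604) and AFB5 (-0.27 ± 0.078, adjusted p = 0.0208). Among 5 genes of the SCF core, CUL1, the cullin scaffold, was higher in Col-0 low light (0.27 ± 0.031, adjusted p = 3.16e-06), and ASK1 lower (-0.19 ± 0.053, adjusted p = 0.00662). In the mutant only CUL1 was called (0.088 ± 0.031, adjusted p = 0.0409), and its interaction was -0.18 (adjusted p = 0.00859). Among 5 TPL/TPR corepressors TPR2 was higher (0.40 ± 0.048, adjusted p = 4.31e-06) and TPR4 lower (-0.11 ± 0.045, adjusted p = 0.0467) in Col-0 low light. TPR2 had an interaction of -0.34 (adjusted p = 0.0027), and 3 corepressors were lower in bhlh89,91 than in Col-0 in low light.

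The GH3 genes encode enzymes that conjugate auxin to amino acids and are induced by auxin, and 6 of 7 were tested. In Col-0 low light 5 were called higher and 0 lower, all 5 at the DEG limits, with a median log2FC of 1.81. Over all genes 29.1% were called higher there, and 5.86% were higher at the DEG limits. GH3.2 rose from 8.87 ± 2.26 to 154 ± 15.6 TPM (SD, n = 4; log2FC 4.12 ± 0.20 (SE), adjusted p = 8.91e-10). GH3.3 rose by 2.35 ± 0.17 (adjusted p = 3.36e-08) and GH3.5 by 2.29 ± 0.15 (adjusted p = 1.88e-08) on the log2 scale. In bhlh89,91, 3 of 6 were called higher (16.7% of all genes), and GH3.2 went from 4.76 ± 0.31 to 14.2 ± 4.07 TPM (log2FC 1.60 ± 0.20, adjusted p = 2.99e-05). The interaction was called below 0 for 4 (11.1% of all genes), with GH3.2 at -2.52 (adjusted p = 5.07e-05), GH3.3 at -2.38 (adjusted p = 2.75e-05) and GH3.17 at -0.91 (adjusted p = 0.00281). The 4 summed ranges were 101 to 110, 545 to 627, 70.7 to 96.3 and 127 to 202 TPM in Col-0 normal, Col-0 low, bhlh89,91 normal and bhlh89,91 low light.

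SAUR genes, many of them early auxin-induced growth regulators, were less uniform. Of 80 listed, 37 were tested. In Col-0 low light 8 were called higher and 5 lower, where 57.9% of all genes were called (29.1% higher and 28.9% lower). In bhlh89,91 5 were higher and 6 lower, against 33.2% of all genes (16.7% higher and 16.6% lower). The SAUR medians were 0.030 and -0.097. SAUR44 rose in Col-0 (3.38 ± 0.45, adjusted p = 1.17e-05) and in bhlh89,91 (2.32 ± 0.67, adjusted p = 0.0148). Of 16 genes known as ARF targets 9 were tested. In Col-0 low light 1 was called higher and 5 lower, and in bhlh89,91 2 higher and 3 lower, beside the same shares of all genes. FIL, a target of ARF5 in flower primordia, fell in Col-0 (-0.55 ± 0.053, adjusted p = 5.26e-07) and in bhlh89,91 (-0.17 ± 0.053, adjusted p = 0.0231), and its interaction was 0.38 (adjusted p = 0.00235). TMO5, another ARF5 target, fell in Col-0 (-0.37 ± 0.064, adjusted p = 0.00014) and in bhlh89,91 (-0.77 ± 0.064, adjusted p = 8.3e-07) with an interaction of -0.39 (adjusted p = 0.00592).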

How the data were processed

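Per the labels and the study's methods, polyadenylated RNA was sequenced and the authors quantified reads with Salmon (version not given in the sources used here) against AtRTD2 transcripts and summed them to genes with tximport 1.10.0 as length-scaled TPM. A genome build for AtRTD2 was not given in the sources used here. The deposited tables hold TPM and estimated counts for 33681 genes and 16 libraries, and the kit as described does not mark strand. Estimated counts were rounded and tested with edgeR 4.0.16 (R 4.3.3; TMM, quasi-likelihood F test, 4 group means, 12 residual degrees of freedom) on the 21309 genes that reached 1 CPM in 1 library or more, with Benjamini-Hochberg adjustment. A call is an adjusted p under 0.05, and the SE is the absolute log2FC over the square root of F. TPM is used for levels only. Coordinates and sequences are from RefSeq on TAIR10.1. Table columns were matched to groups by name. The script was tested on simulated data. Values per library are given for members within the DEG limits in a pairwise comparison, with a called interaction, or among 7 ARFs with textbook roles in the flower or small RNA sites. In the other auxin lists at most the 3 called genes with the largest absolute log2FC per comparison were to be named, and others named beside a member were chosen after their values were seen. Alternatives were limma 3.58.1 (voom, and trend on log2(TPM + 1) or log2(TPM + 0.1)), DESeq2 1.42.0, other size factors, filters and fits, the DEG limits, and each library left out. Replicates are biological per the labels. Within-group correlations were 0.973 to 0.992, and no libraries were duplicates. The members and lists were chosen with earlier results of these data known. MYB101 was set apart from the late pollen list after its values were seen.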

Additional observations from a re-analysis of the deposited data

Results flagged for a closer look

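The light response of 16 members differed between the genotypes by the interaction test (bhlh89,91 minus Col-0, log2 scale). The values below 0 were -0.883 for IAA1, -1.59 for IAA2, -1.61 for IAA4, -0.452 for IAA11, -0.98 for IAA13, -1.66 for IAA14, -0.606 for IAA16, -0.424 for IAA18, -1.77 for IAA19 and -0.586 for IAA26 among the Aux/IAA genes. Among the ARFs they were -0.235 for ARF2, -0.304 for ARF9, -0.488 for ARF10 and -0.717 for ARF17. The values above 0 were 0.184 for IAA8 and 0.382 for ARF8.

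A single library stood apart from the other 3 of its group in 4 of 96 groups checked by Dixon's criterion, where chance gives about 1 in 20. IAA26 was at 36.2 TPM in 1 Col-0 low light library against 43.3 to 44.7 TPM in the others. IAA32 was at 4.42 TPM in 1 bhlh89,91 low light library against 1.81 to 2.0 TPM. ARF6 was at 118 TPM in 1 bhlh89,91 normal light library against 105 to 106 TPM, and ARF10 at 22.6 TPM in another against 28.4 to 28.5 TPM.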

How the results depend on the processing

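The check covered 147 values. They were all those of the 24 members given per library, and the called values of the other tested members. Of the 147, 97 were called, and 72 of these kept their call under every method whose fit held the gene and without any single library. IAA20 in Col-0 light is counted as kept, although the stricter filter and the fit of Col-0 alone left it out. None of the 97 changed direction, 19 lost their call under a method and 25 without a library. In bhlh89,91 light those lost under a method included IAA2, IAA7, IAA8, IAA10 and IAA27. Between genotypes in normal light they included IAA7, IAA13, IAA19 and IAA20. IAA26 in Col-0 light and the interactions of IAA8 and IAA11 were also among them. The number of members called was 28 to 32 over the methods and 27 to 32 with a library left out for Col-0 light (30), 11 to 17 and 12 to 16 for bhlh89,91 light (16), 7 to 12 and 6 to 12 for the genotypes in normal light (11), 23 to 25 and 21 to 25 in low light (24), and 15 to 18 and 14 to 18 for the interaction (16). The 7 in normal light came from a fit of only the groups compared. At the DEG limits the counts were 9, 1, 0, 7 and 4 in the same order. The reversals were all in values that were not called. The genotype difference of ARF2 in normal light became -0.00244 with DESeq2, -0.002463 with RLE factors, -0.005306 with limma-trend on log2(TPM + 1) and -0.005326 on log2(TPM + 0.1). That of ARF6 in low light became -0.003894, -0.003899, -0.02324 and -0.02341 in the same order and -0.000629 with limma-voom. With a library left out, the ranges crossing 0 were -0.109 to 0.04438 for ARF10, -0.03922 to 0.01838 for ARF6 between genotypes in low light, and -0.02391 to 0.02445 for ARF2, -0.03395 to 0.4223 for IAA14 and -0.01558 to 0.08728 for IAA26 in normal light. In Col-0 light they were -0.02997 to 0.01964 for ARF16 and -0.03311 to 0.00396 for ARF5, in bhlh89,91 light -0.006374 to 0.04636 for ARF16, -0.02055 to 0.1679 for IAA16, -0.01453 to 0.06828 for IAA18 and -0.01284 to 0.2587 for IAA4, and in the interaction -0.08554 to 0.001117 for ARF3. The cause was not tested. No paired analysis was possible because the table columns carry numbers that are not the replicate numbers of the labels. The 1 CPM filter left out 6 Aux/IAA genes.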

Other observations

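Of the 6 Aux/IAA genes under the filter, 2 were called in Col-0 low light when all 29032 genes with a count were fitted. The share of those 29032 genes called was not counted, so the 2 calls have no background of their own fit. In the filtered fit 57.9% of all genes were called in this comparison. IAA29, known in seedlings as a shade-induced gene, held 15 counts over the 4 Col-0 normal light libraries, 34 in Col-0 low light and 18 in each mutant group (log2FC 1.29 ± 0.40 (SE), adjusted p = 0.0136 with edgeR's quasi-likelihood test). IAA5, an early auxin-induced gene, held 14, 37, 14 and 15 counts in the same order (log2FC 1.41 ± 0.54, adjusted p = 0.0454). Its exons overlap an antisense gene. Neither interaction was called (adjusted p = 0.199 for IAA29 and 0.332 for IAA5). Nor was the difference between genotypes in low light (adjusted p = 0.112 for IAA29 and 0.0826 for IAA5). IAA6, IAA15, IAA31 and IAA34 were not called in Col-0 low light. IAA6 held 8 counts over all 16 libraries.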
